A study of Mus musculus with 2 samples.

Results

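The genes described here are 42 mouse genes listed as type I interferon-stimulated genes. They were looked up by symbol among the 31053 genes of both single-cell libraries, and 41 of the 42 were found. Mx2 was the 1 symbol not found and was dropped. The study treated C57BL/6 wild-type mice, whose tongue tumours had been induced with the carcinogen 4NQO as a model of head and neck squamous cell carcinoma (HNSCC), for 10 days with JQ1 or with control. JQ1 is a small molecule that blocks the acetyl-lysine binding pockets of the BET proteins. Each group is 1 droplet-based 3' RNA library, so there is no replicate, no test and no p-value here, and the intervals below cover counting error only. The labels give neither the number of animals per library nor the agent given to the control.

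Type I interferons are sensed by a receptor made of Ifnar1 and Ifnar2, and the signal reaches the nucleus through transcription factors such as Stat2 and Irf9. They bind a response element in the promoters of its target genes, whose products sense viral RNA, block translation, restrict viral entry and release, or feed back on the pathway. Many of the same genes also respond to interferon gamma or to interferon regulatory factors directly, so the list is not specific to a single ligand.

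The promoters of part of the family hold a motif of the response element. Those printed are from members with the motif that recur in the comparisons below. RefSeq promoters of build GRCm38.p6, from 250 bases before to 50 after each start, were found for 30 of the 41 members. The motif searched was GAAANNGAAA on either strand, which reads TTTCNNTTTC on the other. It occurred in 15 of the 30 members (50%) and in 1079 of 27025 genes of the same table (3.99%). Motif letters are in capitals below, and overlapping matches run together.
Isg15, chr4:156200855-156200916, minus strand: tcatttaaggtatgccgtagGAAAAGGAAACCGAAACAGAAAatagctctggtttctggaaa
Bst2, chr8:71537567-71537622, minus strand: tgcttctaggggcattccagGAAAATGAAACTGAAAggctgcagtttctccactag
Ifit1, chr19:34640765-34640833, plus strand: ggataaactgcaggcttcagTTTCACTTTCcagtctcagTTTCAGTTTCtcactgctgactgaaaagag
Ifit3, chr19:34583353-34583436, plus strand: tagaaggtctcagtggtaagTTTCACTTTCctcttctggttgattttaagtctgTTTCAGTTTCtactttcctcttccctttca
Rsad2, chr12:26456543-26456592, minus strand: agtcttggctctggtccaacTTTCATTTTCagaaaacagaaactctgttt
The same 84 bases as for Ifit3 stand upstream of its paralog Ifit3b. Reads of this near-identical pair could be split or lost in counting, so the values of both are uncertain. The motif was not in the windows of Irf7, Oasl1 and Oasl2, which says only that these letters are not there.

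After removal of low-quality barcodes and doublets, 8150 control and 14044 JQ1 cells remained, with medians of 11302.5 and 3879 UMIs (unique transcript counts). The libraries shared 40 barcodes. Cells were assigned to 15 classes by markers that include no member, and the mix of classes differed. The control library held 5282 epithelial cells and the JQ1 library 1403, while fibroblasts numbered 805 and 4316. Levels were therefore compared within classes, as UMIs scaled to the UMI total of the class (CPM). A summed level alone cannot tell fewer carrying cells from less RNA per cell, so cells are counted further below.

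Summed over all kept cells, the 41 members gave 1385 CPM in the control and 2470.0 CPM in the JQ1 library, with the different mix of classes included. Within epithelial cells the sum was 1218 CPM in the control and 1176 CPM under JQ1, a ratio of JQ1 to control of 0.965 (95% interval 0.952 to 0.979). Endothelial cells had the highest levels of the 6 classes with at least 100 cells in both libraries, 5145 and 5231 CPM, and the interval of their ratio (0.996 to 1.04) includes 1. Fibroblasts had 3827 and 4633 CPM (ratio 1.21, 1.19 to 1.23). Mural cells, which are pericytes and smooth muscle, had 2211 and 3040.3 CPM (ratio 1.38, 1.3 to 1.45). Neutrophils had the lowest control level and the largest ratio, with 822 and 1419 CPM (ratio 1.73, 1.58 to 1.88). The neutrophils were not the same mix of cells in both libraries: a joint cluster led by Camp and Ngp, granule genes of immature neutrophils, held 2 control and 157 JQ1 cells. In neutrophils high in Ccl3 and Ccl4 (384 control and 375 JQ1 cells) the sum was 819.7 and 1629 CPM (ratio 1.99, 1.79 to 2.21). T cells had 1232 and 1331 CPM, with an interval of 0.982 to 1.19 that includes 1.

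The sum is dominated by 3 abundant members: Ifitm3, a membrane protein that hinders viral entry, and the small hydrophobic proteins Ifi27l2a and Ifi27. They held 88.6% of the epithelial member UMIs in the control and 73.9% in the JQ1 library. Ifitm3 alone was at 967 CPM in the control and 729.7 CPM under JQ1 in epithelium, a ratio of 0.755 (0.742 to 0.768). The other 38 members together went the opposite way in epithelium, from 139 to 307 CPM, a ratio of 2.2 (2.14 to 2.27). The epithelial cells sat partly in different joint clusters: one led by BC037156, Ppbp and Sprr1a held 864 control and 5 JQ1 cells, and one led by Krt42, Csn1s1 and Krt16 held 1446 and 107. With epithelial subtypes weighted equally the ratio of all 41 members was 1.26, and the part of the clusters in the ratio of the 38 was not tested. Without the abundant 3, the ratio was 1.41 in fibroblasts, 1.34 in endothelial cells, 1.78 in mural cells and 1.58 in neutrophils. In T cells it was 0.90, and its interval (0.798 to 1.02) includes 1.

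**Figure D1:**
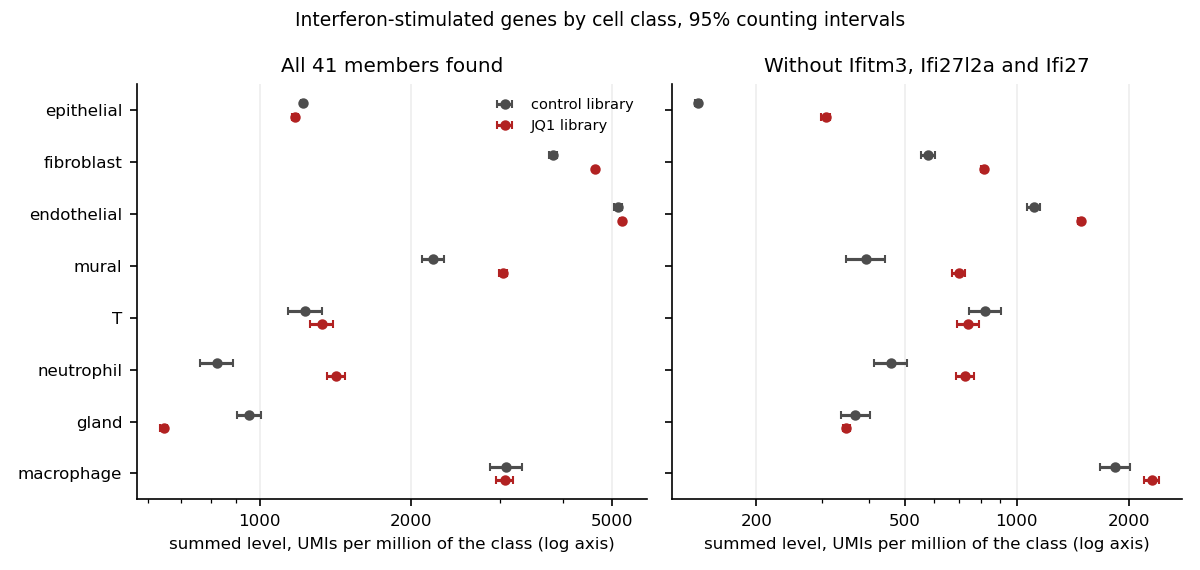
Summed level of the members per cell class in CPM on a log axis, for all 41 members found (left) and without Ifitm3, Ifi27l2a and Ifi27 (right); points are the single control and JQ1 libraries and bars are 95% counting intervals. The epithelial points lie close together on the left, at 1218 and 1176 CPM, and apart on the right, at 139 and 307 CPM.

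A member was taken as measured in a class when the libraries together held at least 20 of its UMIs and the higher library reached 10 CPM, and as higher or lower at 1.5-fold. A member can pass through the library in which it is high, so these counts describe the members measured and not the list. In epithelium 14 of the 41 passed, 8 of them higher under JQ1 and 0 lower, beside 11.1% higher and 4.59% lower of the 8210 genes measured there. All 8 were below 10 CPM in the control, so each passed through the JQ1 library alone. The 6 that reached 10 CPM in the control were within 1.5-fold. In fibroblasts 30 passed, with 13 higher and 0 lower, beside 5.68% and 2.6% of all genes measured. In endothelial cells 32 passed, with 16 higher and 0 lower, beside 8.32% and 3.01%. In mural cells 28 passed, with 18 higher and 1 lower, beside 18.5% and 7.08%. In neutrophils 21 passed, with 11 higher and 2 lower, where 36.1% of all genes measured were higher and 14.1% lower. In T cells 23 passed, with 4 higher and 5 lower, beside 17.6% and 8.91%. The median log2 ratio of the measured members was 0.76 in epithelium beside 0.14 for all genes, 0.53 beside 0.08 in fibroblasts, and 0.58 beside 0.07 in endothelial cells. It was 0.81 beside 0.10 in mural cells, 0.79 beside 0.27 in neutrophils and 0.07 beside 0.07 in T cells. Over the 6 classes, 35 members were measured in at least 1 class, and Dhx58, Ifit3b, Mx1, Oas1a, Oas2 and Usp18 in none. Among these 6, Mx1 had 0 UMIs in control and 56 in JQ1 fibroblasts, at least 2.94-fold higher against a floor of 3 counts for the class.

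**Figure D2:**
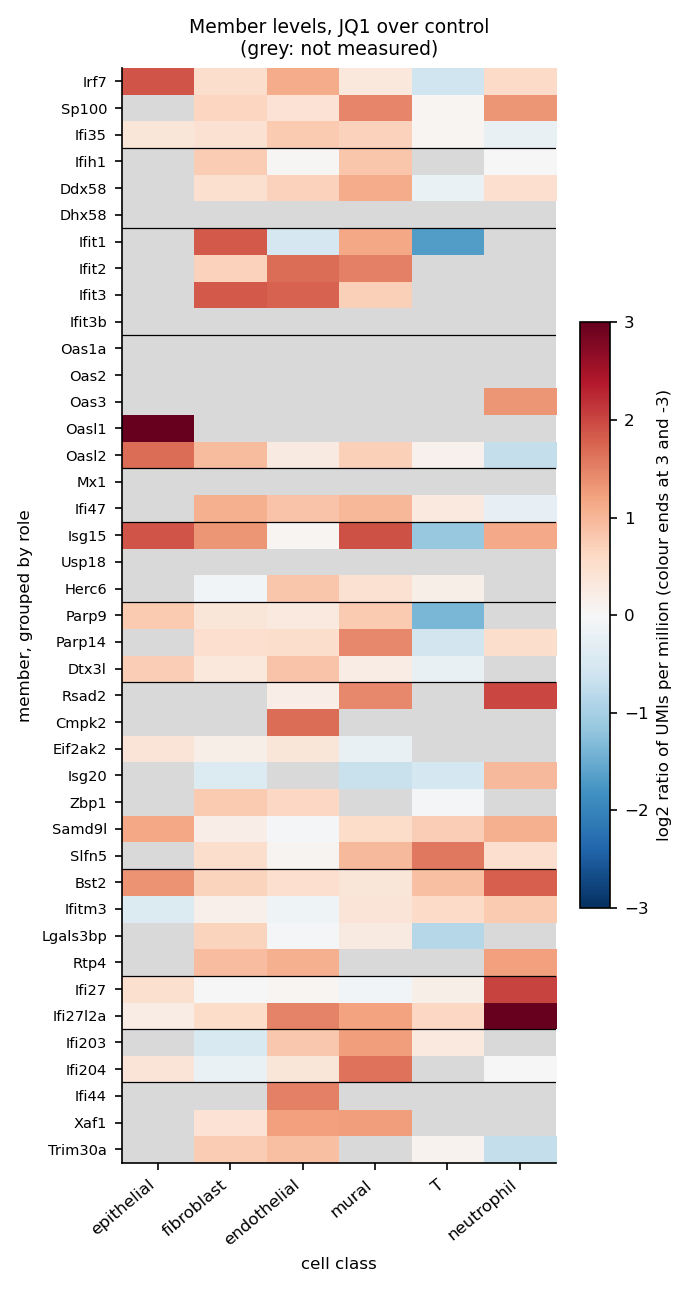
Log2 ratio of JQ1 to control level for the members in 6 cell classes, grouped by role; red is higher under JQ1, blue is lower, and grey marks a member not measured in that class. Ifit1 and Ifit2 in mural cells had 0 control UMIs and are drawn at their lower bounds, 1.17 and 1.52. The lowest values are in T cells, Ifit1 at -1.67, Parp9 at -1.38 and Isg15 at -1.13.

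Irf7 is the transcription factor that amplifies interferon production. In epithelium it was at 5.19 CPM in the control and 19.3 CPM under JQ1, 3.71-fold higher (3.24 to 4.24). In endothelial cells it was at 16 and 34.6 CPM, 2.16-fold higher (1.52 to 3.15). In T cells it was at 30 and 19.7 CPM, on 15 and 21 UMIs, and the interval of its ratio includes 1 (0.323 to 1.37). Sp100, a protein of nuclear bodies, was at 38.3 and 95.3 CPM in neutrophils, 2.49-fold higher (1.68 to 3.79). In the neutrophils high in Ccl3 and Ccl4 it was at 43.7 and 59.9 CPM, on 29 and 40 UMIs, and the interval of that ratio includes 1 (0.829 to 2.29). Of the cytosolic RNA sensors, Ddx58 (RIG-I) was at 22.9 and 37.2 CPM in endothelial cells (1.63-fold) and Ifih1 (MDA5) at 12.2 and 20.8 CPM in fibroblasts (1.71-fold).

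The Oas family responds to double-stranded RNA, and Oasl1 is known in mice to hold back the translation of Irf7. Oasl1 had the largest ratio of the members measured in epithelium, at 1.16 CPM in the control and 14.8 CPM under JQ1, 12.7-fold higher (10.2 to 15.8), on 118 and 289 UMIs. Oasl2 was at 3.54 and 11.3 CPM in epithelium (3.19-fold) and 13.8 and 26.7 CPM in fibroblasts (1.93-fold). In neutrophils Oasl2 was at 39.5 and 24 CPM, a ratio of 0.606 whose interval (0.37 to 1.0) reaches 1, and in those high in Ccl3 and Ccl4 at 45.2 and 49.4 CPM (ratio 1.09, 0.646 to 1.86). Of the 6 classes, Oas3 was measured in neutrophils alone, on 4 and 20 UMIs.

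The Ifit proteins bind foreign RNA and block its translation, and Ifit3 had the largest ratio of the members measured in fibroblasts and in endothelial cells. In fibroblasts Ifit3 was at 6.89 CPM in the control and 24.7 CPM under JQ1, 3.59-fold higher (2.34 to 5.78). Ifit1 was at 7.83 and 27.9 CPM there, 3.57-fold higher (2.39 to 5.56). In endothelial cells Ifit3 was at 7.32 and 24.8 CPM (3.38-fold) and Ifit2 at 6.41 and 20.4 CPM (3.18-fold). In mural cells Ifit2 had 0 and 42 UMIs, at least 2.86-fold higher against the floor of 3 counts, and Ifit1 had 0 and 33, at least 2.25-fold higher. In T cells Ifit1 was at 30 CPM in the control and 9.38 CPM under JQ1, a ratio of 0.313 (0.126 to 0.745), with a UMI in 5 of 216 control and 4 of 357 JQ1 cells. Without the T cell with the most Ifit1 UMIs in each library, that ratio was 0.128.

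Isg15 encodes a ubiquitin-like modifier, which Herc6 attaches and Usp18 removes. Isg15 was at 6.62 and 24.5 CPM in epithelium (3.7-fold higher, 3.29 to 4.17), at 9.71 and 24.4 CPM in fibroblasts (2.52-fold), at 15.1 and 56.7 CPM in mural cells (3.76-fold) and at 34.6 and 75.6 CPM in neutrophils (2.19-fold). In endothelial cells it was at 72.3 and 75.3 CPM, with an interval of 0.876 to 1.25. T cells had the highest control level of the 6 classes, 139.8 CPM, and 63.8 CPM under JQ1, a ratio of 0.456 (0.322 to 0.647). Isg15 had a UMI in 36 of 216 control and 38 of 357 JQ1 cells of the T class, 16.7% and 10.6%. Erythroid cells of the JQ1 library, which served as a reference for RNA from outside the cell, had an Isg15 UMI in 28 of 236 cells (11.9%) at a median of 4934 UMIs. The JQ1 share in T cells is not above that reference. The total depth of the reference was greater, but erythroid markers made up a median of 7986 of 10000 UMIs in erythroid cells. Other genes were read there at a lower depth than the total, and the source of the Isg15 UMIs was not tested. Among subtypes described below, the JQ1 share was also not above the reference in basal epithelium (11.1%), Pi16 fibroblasts (10.4%) and neutrophils high in Ccl3 and Ccl4 (9.33%). It was above in suprabasal and stress-type epithelium (15.7% and 23%) and in capillary and venular endothelial cells (19.9% and 21.2%). Median depths of these JQ1 subtypes ran from 1753 UMIs in the neutrophils to 15870 in stress-type cells. Median depths of the T cells were 1936 and 2479 UMIs. Herc6 was 1.78-fold higher in endothelial cells (12.4 and 21.9 CPM).

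Among the RNA and nucleotide effectors, Samd9l, which restrains translation, was at 6.01 and 13.5 CPM in epithelium (2.25-fold higher) and 65.5 and 138 CPM in neutrophils (2.1-fold). Rsad2, the viperin enzyme that makes a chain-terminating nucleotide, was at 6.18 and 24.6 CPM in neutrophils (3.98-fold, 1.57 to 12.9). Cmpk2, a nucleotide kinase, was at 4.58 and 14.7 CPM in endothelial cells (3.22-fold, 1.7 to 6.86). Eif2ak2, the kinase PKR that halts translation, was within 1.5-fold in each of the 4 classes of the 6 where it was measured, with log2 ratios between -0.22 and 0.39. Isg20, an exonuclease, was 1.97-fold higher in neutrophils (28.4 and 55.9 CPM) and at a ratio of 0.63 in mural cells (18.1 and 11.4 CPM, 0.322 to 1.33). Slfn5 was at 30.1 and 59.5 CPM in mural cells (1.97-fold). Parp9 and its partner Dtx3l were 1.72- and 1.68-fold higher in epithelium, and Parp14 was 2.7-fold higher in mural cells (13.6 and 36.7 CPM). In T cells Parp9 was at 22 and 8.45 CPM on 11 and 9 UMIs, and its interval includes 1 (0.141 to 1.02).

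Bst2, or tetherin, holds budding virus at the membrane. It was measured in all 6 classes with a ratio above 1 in each: 2.55 in epithelium (9.34 and 23.9 CPM), 1.6 in fibroblasts, 1.42 in endothelial cells, 1.29 in mural cells, 1.88 in T cells and 3.48 in neutrophils. In mural cells the interval of that ratio includes 1 (0.859 to 1.99). Rtp4, a chaperone of membrane receptors, was 1.9-fold higher in fibroblasts (11 and 20.8 CPM) and 2.09-fold higher in endothelial cells (16 and 33.4 CPM). The secreted glycoprotein Lgals3bp was at 37.3 and 58.9 CPM in fibroblasts (1.58-fold higher) and 53.9 and 30 CPM in T cells (ratio 0.557, 0.323 to 0.966).

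Ifi27l2a, of the Ifi27 family, was at 26.1 and 72.8 CPM in endothelial cells (2.79-fold, 2.13 to 3.72). In neutrophils it was at 4.94 and 55.9 CPM, 11.3-fold higher (4.27 to 42.4), but 1 JQ1 cell held 55 of its 91 UMIs. Without the cell with the most UMIs in each library the neutrophil ratio was 5.99 (1.89 to 30.4). RNA lent by fibroblasts, endothelial, epithelial and gland cells in proportion to their markers in neutrophils would have given 3.09 CPM of Ifi27l2a in the control and 18.2 CPM under JQ1, and its part in the ratio was not tested. Of the Ifi200 family, which senses DNA, Ifi203 was 1.74-fold higher in endothelial cells (43.5 and 75.7 CPM) and at a ratio of 0.734 in fibroblasts (49.5 and 36.3 CPM). Ifi44 was at 11.9 and 34 CPM (2.85-fold) and Xaf1 at 10.1 and 23.7 CPM (2.36-fold) in endothelial cells. Trim30a was 1.87-fold higher there (28.4 and 53 CPM) and at a ratio of 0.606 in neutrophils (68 and 41.2 CPM, 0.418 to 0.882). In the neutrophils high in Ccl3 and Ccl4 the Trim30a ratio was 1.25 (64.8 and 80.9 CPM, 0.82 to 1.91).

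The epithelial subtypes differed in their counts. Basal cells (3637 control and 1053 JQ1 cells) had 9 members measured, with 3 higher and 1 lower under JQ1, beside 11.9% and 5.08% of all genes, and a median log2 ratio of 0.13 beside 0.13. Stress-type cells, gated on wound keratins (816 control and 183 JQ1 cells), had 25 measured, with 23 higher and 0 lower, beside 13.1% and 8.49%, and a median of 2.44 beside 0.11. Suprabasal cells (265 control and 89 JQ1 cells) had 20 measured, with 15 higher and 1 lower, beside 17.8% and 5.89%, and a median of 1.52 beside 0.14. Members below the CPM limit in the control could pass through the JQ1 library alone, as Oasl1, Irf7 and Isg15 did in stress-type cells. The counts and medians of the subtypes therefore cover different members. The part of this filter in the contrast was not tested, nor was a difference between the subtypes.

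In stress-type cells Oasl1 was at 2.2 CPM in the control and 48.6 CPM under JQ1, 22.1-fold higher (15.7 to 31.8). Irf7 was at 2.83 and 41.5 CPM there (14.7-fold) and Isg15 at 4.45 and 52.6 CPM (11.8-fold). Zbp1, a sensor of Z-form nucleic acid that can start necroptosis, was at 1.67 and 15.6 CPM (9.34-fold), and Dhx58, a regulator of the RNA sensors, at 1.31 and 11.9 CPM (9.13-fold). In suprabasal cells Oasl1 was at 1.63 and 75.2 CPM, 46.1-fold higher (23.3 to 104), with 29 of 99 JQ1 UMIs in 1 cell. Ifi204 was 13.6-fold higher in suprabasal cells (3.81 and 51.7 CPM) and lower in basal cells (10.3 and 4.81 CPM, ratio 0.466, 0.357 to 0.60). In basal cells the higher members were Isg15 (7.56 and 16.4 CPM, 2.18-fold), Bst2 (8.0 and 15.2 CPM, 1.9-fold) and Ifi27 (36.9 and 55.6 CPM, 1.51-fold).

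**Figure D3:**
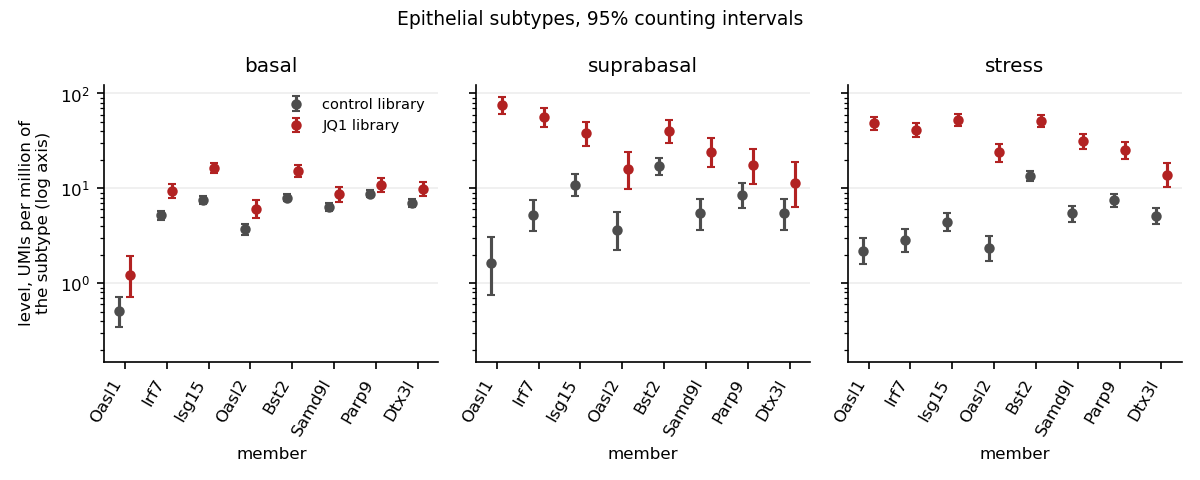
Level of the 8 members that were higher under JQ1 in epithelium as a whole, in basal, suprabasal and stress-type cells, in CPM of the subtype on a log axis; points are the control and JQ1 libraries and bars are 95% counting intervals. For Irf7 the basal points lie closer together than the stress-type points, which stand at 2.83 and 41.5 CPM.

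Few epithelial cells carried Oasl1: it had a UMI in 75 of 5282 control and 74 of 1403 JQ1 cells. The erythroid reference, from the JQ1 library alone, had an Oasl1 UMI in 3 of 236 cells (1.27%), beside 1.42% and 5.27% in control and JQ1 epithelium. These shares were read at unlike median depths, 4934 UMIs in erythroid cells and 17333.5 and 11551 in control and JQ1 epithelium. Most UMIs of the erythroid cells were of erythroid markers. Of the 74 JQ1 epithelial cells, 56.8% also had an Irf7 UMI, 52.7% an Isg15 UMI and 79.7% an Ifi204 UMI. The shares among the other JQ1 epithelial cells were 9.1%, 10.7% and 5.34%. The cells with Oasl1 were deeper, with a median of 27262.5 UMIs beside 11025. Within a band of 20000 to 40000 UMIs, Oasl1 was seen in 34 of 1845 control cells (1.84%) and 34 of 281 JQ1 cells (12.1%). Between 5000 and 10000 UMIs the shares were 0.839% and 1.77%, and their intervals overlap.

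Joint clusters of both libraries, made without the members, held these cells unevenly. In a cluster led by Krt6b, Sprr1b, Krt4 and Krt13, Oasl1 had a UMI in 13 of 216 control and 36 of 45 JQ1 cells, at median depths of 21979 and 27413 UMIs. Irf7 had one in 7 and 27 of the same cells. In a cluster led by Krt6b, Krt42 and Krt16, Oasl1 was seen in 8 of 392 control and 26 of 75 JQ1 cells. In one led by Krt13, Mt4 and Krt6b it was seen in 8 of 920 and 5 of 305. The cluster with the most control cells carrying Oasl1, led by BC037156, Ppbp and Sprr1a, had it in 36 of 864 control and 1 of 5 JQ1 cells, so it allows no comparison of the libraries.

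Markers of other classes were measured in the same cells. In JQ1 epithelial cells with Oasl1 the summed macrophage or monocyte markers were at 1.43% of their level in that class, with 4 of 14 at 0, beside 1.39% in those without Oasl1. Dendritic markers were at 1.63%, with 9 of 12 at 0, beside 2.95%. Neutrophil markers, a list that holds S100a8 and S100a9, which wounded keratinocytes also express, were at 2.89%, with 4 of 15 at 0, beside 0.741%. Had fibroblasts, endothelial cells, neutrophils and gland cells each lent RNA to epithelial cells in proportion to their markers there, that would have given 31.8 of the 139 CPM of the 38 less abundant members in the control and 32.3 of the 307 CPM under JQ1. The near-equal totals hid different parts. Neutrophils, whose list holds S100a8 and S100a9, gave 25.6 CPM in the control and 7.02 CPM under JQ1. Fibroblasts gave 4.0 and 13.3 CPM, endothelial cells 2.05 and 10.4 CPM, and gland cells 0.119 and 1.46 CPM. The same reckoning gave 26.1% and 22.8% of the mural level, 1.96% and 5.08% of the neutrophil level, and 1.35% and 4.46% of the T cell level.

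Capillary and venular endothelial cells had different values behind the similar sums of the whole endothelial class in the control and JQ1 libraries. The summed level of all members was 3613 CPM in control and 4572 CPM in JQ1 capillary cells (ratio 1.27, 1.21 to 1.33). In venular cells it was 6656 CPM in the control and 5697 CPM under JQ1 (ratio 0.856, 0.832 to 0.88). Capillary-type cells (93 control and 321 JQ1 cells) had 32 members measured, with 27 higher and 0 lower, beside 20.3% and 8.48% of all genes. Their median log2 ratio was 1.30, beside 0.10 for all genes. Venular cells (190 control and 694 JQ1 cells) had 29 measured, with 10 higher and 3 lower, beside 12.3% and 5.18%. Their median was 0.40, beside 0.07 for all genes. Of the 29 members measured in both subtypes, 25 had the larger ratio in capillary cells, a difference that was not tested. The same count over all genes is not given here, so the 25 cannot be set against it. Ifit1 was at 3.39 and 42.3 CPM in capillary cells, on 2 and 68 UMIs, a ratio of 12.5 (3.32 to 105). In venular cells it was at 106 and 36.7 CPM, a ratio of 0.348 (0.268 to 0.454). The venular control level came from 16 of 190 cells, and 1 of these held 38 of the 97 UMIs. Over all endothelial cells the Ifit1 ratio was 0.703, and 1.01 without the cell with the most UMIs in each library. Rsad2 was 2.54-fold higher in capillary cells (23.7 and 60.3 CPM) and at a ratio of 0.454 in venular cells (35.9 and 16.3 CPM, 0.295 to 0.711). Irf7 was at 10.2 and 56.5 CPM in capillary cells (5.56-fold, 2.46 to 15.6) and 15.2 and 21.2 CPM in venular cells. Ifit3 was higher in both, 5.35-fold in capillary cells and, from 3 control UMIs, 5.89-fold in venular cells (1.94 to 29.1).

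**Figure D4:**
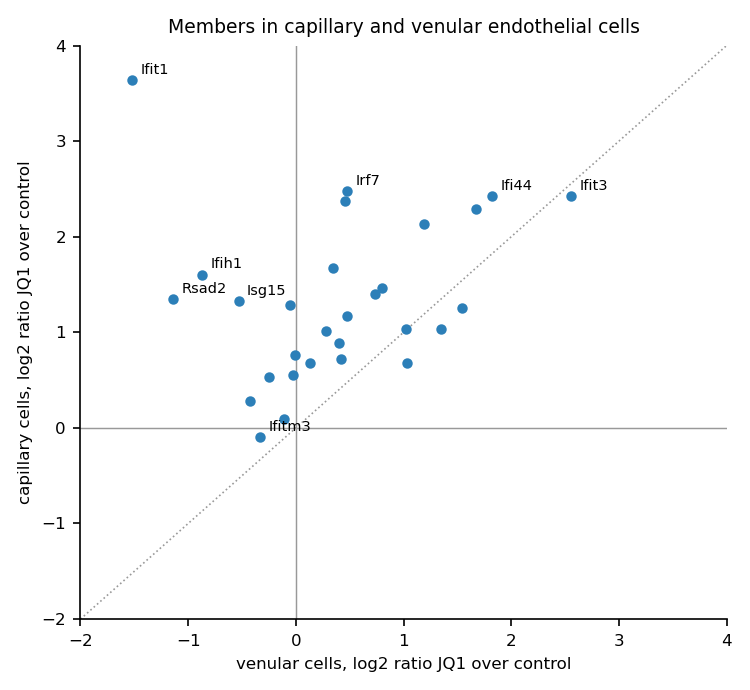
Log2 ratio of JQ1 to control level of the 29 members measured in both capillary-type and venular endothelial cells; each point is a member and the dotted line marks equal ratios. Of the points, 25 lie on the capillary side of the line, among them Ifit1 at 3.64 in capillary and -1.52 in venular cells. The same count over all genes is not given.

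The fibroblast and smooth muscle subtypes had more members higher than lower. Pi16 fibroblasts, an adventitial type (119 control and 788 JQ1 cells), had 32 measured, with 20 higher and 1 lower, beside 15.3% and 9.17% of all genes. Their Ifit1 was at 7.5 and 52.1 CPM (6.95-fold, 2.67 to 25.8) and Bst2 at 58.1 and 128 CPM (2.2-fold, 1.53 to 3.27). Myofibroblast-type cells (66 control and 295 JQ1 cells) had 27 measured, with 18 higher and 0 lower, beside 20.7% and 10.6%. Their Ifi27l2a was at 42.4 and 228 CPM, 5.37-fold higher (3.62 to 8.3). Fibroblasts outside the named subtypes (315 control and 1273 JQ1 cells) had 30 measured, with 7 higher and 4 lower, beside 11.4% and 7.34%, among them Ifi203 at 95.5 and 37 CPM (ratio 0.387, 0.299 to 0.506). The Thbs4 or Cilp type (247 control and 1358 JQ1 cells) had 29 measured, with 10 higher and 0 lower, beside 13.7% and 5.06%, and the Wif1 or Gdf10 type (58 control and 602 JQ1 cells) had 29, with 18 higher and 1 lower, beside 24.1% and 10.4%. Smooth muscle cells (101 control and 306 JQ1 cells) had 21 measured, with 13 higher and 0 lower, beside 18.8% and 7.78%.

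Neutrophils high in Ccl3 and Ccl4 (384 control and 375 JQ1 cells) had 15 members measured, with 10 higher and 0 lower, beside 13% and 21.8% of all genes measured there. Isg15 was at 34.7 and 154 CPM in these cells, 4.45-fold higher (2.81 to 7.33), with a UMI in 18 of 384 control and 35 of 375 JQ1 cells. Rsad2 was at 7.53 and 56.9 CPM, 7.55-fold higher (2.97 to 24.6), and 1 JQ1 cell held 13 of its 38 UMIs.

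T cells outside the regulatory, CD8 and type 17 or gamma-delta gates (108 control and 175 JQ1 cells) had 11 measured, with 2 higher and 2 lower, beside 20.2% and 10.3%. Their Isg15 was at 152 and 66.2 CPM, a ratio of 0.434 (0.246 to 0.765).

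Macrophages or monocytes (72 control and 167 JQ1 cells) and gland cells (86 control and 1521 JQ1 cells) had fewer than 100 cells in the control and were added after the values were seen. Macrophages had the highest level of the 38 less abundant members among these 8 classes, 1839 and 2302 CPM. Of 27 members measured there, 8 were higher and 5 lower, beside 19.4% and 12.3% of all genes. Rsad2 was at 115 and 284 CPM (2.48-fold), Oasl1 at 98.3 and 201 CPM (2.04-fold) and Irf7 at 81.9 and 27.8 CPM (ratio 0.34, 0.178 to 0.652). In gland cells 12 were measured, with 1 higher and 5 lower, beside 32.3% and 3.99%, and Ifit1 was at 10.3 and 1.76 CPM (ratio 0.171, 0.0904 to 0.341).

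Whether few or many cells carry the list was read after thinning each cell to 1000 UMIs, since depth differs between the libraries. Cells with at least 3 distinct members made up 3.35% and 6.66% of control and JQ1 epithelial cells, 27.8% and 34.1% of fibroblasts, 32.5% and 42% of endothelial cells, 8.28% and 18.1% of mural cells and 3.92% and 11% of neutrophils. In these 5 classes the 95% intervals of the 2 libraries did not overlap. Those intervals take the cells of a library as independent and cover counting error only. They leave out differences between libraries, so the lack of overlap is no test of the treatment. T cells had 10.5% and 10.8%. The erythroid reference had 3.9%, and it was read in the JQ1 library alone. That share counts Rsad2, for which erythroid cells are no reference, as described under the other observations. Erythroid markers made up a median of 7986 of 10000 UMIs in these cells. Thinning to 1000 UMIs therefore left fewer UMIs for the members there than in the other classes, so 3.9% is not a like background for their shares. Before thinning, the shares were 56.8% and 55.9% in epithelium and 8.57% and 30.6% in neutrophils. Cells under 1000 UMIs were left out, among them 29 control and 67 JQ1 epithelial cells and 59 and 55 neutrophils.

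**Figure D5:**
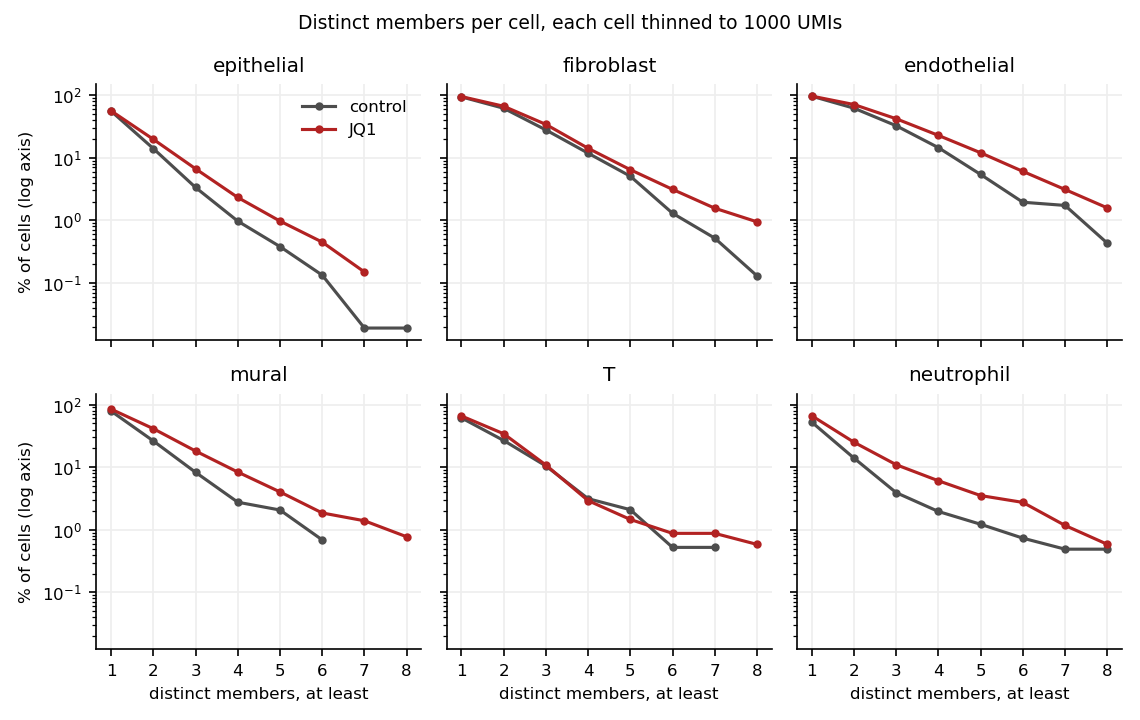
Share of cells on a log axis with at least the given number of distinct members, after thinning each cell to 1000 UMIs, for 6 cell classes in the control and JQ1 libraries. At 3 members the JQ1 curve lies above the control curve in epithelial, fibroblast, endothelial, mural and neutrophil panels, while the T cell curves meet, at 10.5% and 10.8%.

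The members other than the abundant 3 were unevenly spread over cells. In neutrophils, cells with at least 3 of the 38 made up 6.85% of the JQ1 class and held 49.3% of its UMIs for those members, beside 2.94% and 28.4% in the control. In epithelium such cells were 2.32% with 31% of the UMIs under JQ1, beside 0.533% with 12.6%. In endothelial cells they were 20.1% with 55.8%, beside 12.1% with 40.7%. In fibroblasts they were 7.27% with 41.3%, beside 4.94% with 27%, and in mural cells 7.28% with 43.7%, beside 2.76% with 28.6%. T cells had the reverse order, 3.22% with 21.3% under JQ1, beside 5.24% with 32% in the control. In the remaining cells the mean per thinned cell was 0.376 UMIs in control and 0.477 in JQ1 neutrophils, 0.14 and 0.211 in epithelium, and 0.549 and 0.54 in fibroblasts. Cells with at least 5 of the 41 members were 109 of 7837 in the control and 681 of 13122 in the JQ1 library. Of the 681, fibroblasts made up 39.9% and endothelial cells 32.3%, beside 32.2% and 14% of the 13122 cells. Of the 109 in the control, fibroblasts made up 35.8% and endothelial cells 22.9%, beside 9.81% and 5.9% of the 7837 cells. The totals of both libraries carry their mix of classes, since epithelial cells were 67% of the 7837 and 10.2% of the 13122.

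The rest of the pathway was described with lists of its ligands, receptors, factors and neighbouring targets. In epithelium Stat2 was at 7.27 and 13.2 CPM (1.82-fold) and Irf9 at 14.1 and 23.6 CPM (1.68-fold). The receptor subunits Ifnar1 and Ifnar2 were at 11.4 and 15.4 CPM and at 16.8 and 18.5 CPM, both within 1.5-fold. Of the measured genes of the interferon-gamma-inducible list, 5 of 6 were higher in epithelium, beside 11.1% of all genes measured there. The counts were 8 of 10 in fibroblasts (all genes 5.68%), 9 of 11 in endothelial cells (8.32%), 9 of 10 in mural cells (18.5%), 6 of 10 in T cells (17.6%) and 3 of 7 in neutrophils (36.1%). Of this list, 2 were lower in neutrophils, 1 in mural cells and 0 in each of the other 4 classes. Gbp2, a guanylate-binding protein, was at 14.7 and 54.8 CPM in epithelium (3.73-fold). Of the MHC class I list, read against the same shares of all genes, 8 of 9 were higher in epithelium, 7 of 8 in mural cells, 3 of 9 in endothelial cells, 1 of 8 in fibroblasts, 1 of 9 in T cells and 0 of 9 in neutrophils. Lower were 2 in neutrophils, 1 in T cells and 0 in each of the other 4. Ifng, which encodes interferon gamma, was measured in T cells alone of the 6 classes, at 249.7 and 286 CPM, with an interval of 0.928 to 1.42.

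Ifnb1, which encodes beta interferon, was measured in macrophages or monocytes alone of the 8 classes described. It was at 77.8 CPM in the control and 295 CPM under JQ1, 3.79-fold higher (2.38 to 6.41). Those UMIs lay in 4 of 72 control and 16 of 167 JQ1 cells, and 1 JQ1 cell held 121 of 244. The 16 cells held 75.3% of the Rsad2 UMIs and 31.8% of the UMIs of the 38 less abundant members in JQ1 macrophages, at a median depth of 6161 UMIs beside 3712 in the others. The 4 control cells held 28.6% and 12.2%, at 3695 UMIs beside 2725.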

How the data were processed

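The deposited files hold raw UMI counts per gene and barcode from 10x 3' libraries. Cell Ranger 3.1.0, Seurat 4.0.0 and build mm10 are named, per the submitters' processing notes, and the labels name no annotation release. The libraries held 9754 control and 16233 JQ1 barcodes with 118382532 and 99565417 UMIs, which sets the precision. Barcodes with 200 or more genes and a mitochondrial share below 20% were kept, and 119 and 424 doublets called with Scrublet in scanpy 1.11.5 were removed. A cell joined a class when at least 3 of its markers were detected, their mean reached 0.25 of that in the top 50 cells, and the second class was at most 0.6 of the best. Ungated cells numbered 500 and 1946. Class and subtype names mean no more than this gate, and names rebuilt this way may differ from the authors'. For each library, the UMIs of a class were added up and divided by the class total. Poisson and Clopper-Pearson 95% intervals (scipy 1.17.1) cover counting error only, and with 1 library per group treatment and library cannot be told apart. Within each class the members named are those at 1.5-fold, ranked by the interval bound nearest to 1, up to 10 each way, the 5 with the highest CPM, and those against the majority. Pathway genes are named at 1.5-fold or as ligand, receptor, Stat2 or Irf9, and some pathway results are not reported here. Members named in subtypes, Eif2ak2, Herc6, Ddx58 and the joint clusters named were chosen after their values were seen. Scripts were tested on simulated data. A ratio past 1.5-fold on few UMIs can lie within counting error, which its interval shows. The members and all lists were chosen with earlier results of these data known. The alternatives were other cell filters, gates, clusters, weights, scalings, folds and thinning depths.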

Additional observations from a re-analysis of the deposited data

Results flagged for a closer look

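Of the 35 members measured in at least 1 of the 6 classes, 8 were at 1.5-fold or more in opposite directions in different classes. The same count over all genes is not given here, so the 8 cannot be set against it. Calls at 1.5-fold were common in some classes, with 36.1% of all genes measured in neutrophils higher and 14.1% lower. The differences between classes were not tested, and each class is 1 library per group. The gap between the lowest and the highest class, as a difference of log2 ratios, was 3.51 for Ifit1 (T cells -1.67, fibroblasts 1.83) and 3.04 for Isg15 (T cells -1.13, mural cells 1.91). It was 2.50 for Irf7 (T cells -0.60, epithelium 1.89), 2.39 for Oasl2 (neutrophils -0.72, epithelium 1.67) and 2.17 for Parp9 (T cells -1.38, mural cells 0.79). It was 1.64 for Isg20 (mural cells -0.67, neutrophils 0.98), 1.62 for Trim30a (neutrophils -0.72, endothelial cells 0.90) and 1.51 for Lgals3bp (T cells -0.84, fibroblasts 0.66). The intervals of the lower value include no difference for Irf7 and Parp9 in T cells and for Isg20 in mural cells. In neutrophils high in Ccl3 and Ccl4 alone, the log2 ratio was 0.13 for Oasl2 and 0.32 for Trim30a, so neither was 1.5-fold lower there.

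Cells outside the comparisons also carried the list. The summed level of the 41 members was 1765 CPM in control and 2341 CPM in JQ1 cells that no gate took, a ratio of 1.33. Schwann cells (30 and 795 cells) had a ratio of 1.72 (1.31 to 2.31) and dendritic cells (28 and 35 cells) one of 1.99 (1.74 to 2.28).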

How the results depend on the processing

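Depth and the single library per group limit every value, and the causes of the shifts below were not tested. Of 66 recomputed summed ratios, 44 moved by less than their counting interval. Without the 3 most abundant members the ratio turned to 2.20 in epithelium and was 1.41 in fibroblasts, 1.34 in endothelial cells, 1.78 in mural cells, 0.900 in T cells and 1.58 in neutrophils. With subtypes weighted equally it turned to 1.26 in epithelium, with 16 members higher, and was 1.10 in mural cells (3 lower), 0.980 in T cells (2 higher) and 2.02 in neutrophils (0 lower), where the log2 ratio of Trim30a turned to 0.00073. With the median gene set to 1 the ratios were 0.873 in epithelium, 1.15 in fibroblasts, 0.967 in endothelial cells, 1.28 in mural cells and 1.43 in neutrophils. With equal weight per cell they were 1.14 in fibroblasts (1 lower), 1.06 in endothelial cells and 1.61 in mural cells, and 18 members were higher in neutrophils. The stricter cell filter gave 1.46 in mural cells and 1.90 in neutrophils, and the stricter gate 0.944 in epithelium, 1.45 in mural cells and 1 endothelial member lower. At 2-fold, 4 members were higher in fibroblasts, 8 in endothelial cells and 1 in T cells, and 3 were lower in T cells and 0 in mural cells and neutrophils. Without the filter on members, 32 were higher in epithelium, 21 in fibroblasts and 8 in T cells, and 2 were lower in fibroblasts, 1 in endothelial cells, 6 in mural cells, 14 in T cells and 10 in neutrophils. Shares of all genes at 2-fold and without the filter are not given, and the unfiltered counts include members with few UMIs. Without the top 1% of cells, 5 members were higher in epithelium, and 1 was lower in fibroblasts, 1 in endothelial cells and 0 in mural cells. Joint clusters gave 0 lower in mural cells and 39.6% of JQ1 endothelial cells with at least 3 members. Thinned to 2000 UMIs, the control and JQ1 shares were 8.42% and 13.9% in epithelium, 51.7% and 60.7% in fibroblasts, 59.7% and 68.8% in endothelial cells, 20.8% and 37.8% in mural cells and 28.3% and 29.1% in T cells, and 26.2% in JQ1 neutrophils. Unthinned they were 56.8% and 55.9%, 69.1% and 79.4%, 73.9% and 84.3%, 44.4% and 62.1%, and 33.3% and 43.1% in the same order, and 8.57% and 30.6% in neutrophils. Of the named members' log2 ratios, 605 recomputed values stayed within their interval, 26 moved and 1 reversed. The classes with 50 to 99 cells, the joint clusters named, the sums without the abundant 3 per class, the values without the cell with the most UMIs and the depth bands were chosen after seeing the data. No paired analysis was possible because each group is 1 library.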

Other observations

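Erythroid cells, found in the JQ1 library alone, carried 1 member far more often than the others named here. Rsad2 had a UMI in 79 of 236 erythroid cells (33.5%, interval 27.5 to 39.9), 190 UMIs in all. Isg15 had one in 11.9% of them, Irf7 in 3.81% and Ifit1 in 0.424%. For Rsad2 these cells are therefore no reference for RNA from outside the cell. With no erythroid cell among the 8150 control cells, no comparison between the libraries was possible.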
